A study of Mus musculus with 43 samples.

Results

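The lysosomal genes described here are 39 genes taken by name from the 52636 genes measured in mouse colon organoids and mouse colon fibroblasts by RNA sequencing. They were listed for what their products do, with earlier results of these data known. All 39 passed the filter on low values in both tables. They comprise 27 soluble proteins of the lysosome lumen (8 proteases, 9 glycosidases, 5 sulfatases and 5 lipid-degrading enzymes or protein cofactors), 7 lysosomal membrane proteins and 5 parts of the vacuolar proton pump.

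Colonoids were grown from the colon of Vil-cre/ERT2 mice with wild-type Apc (wt/wt), lines M41, M40 and M1. Tumoroids were grown from Vil-cre/ERT2 mice with floxed Apc (flox/flox), lines F11, M3 and M14, in which the villin promoter directs the tamoxifen-activated recombinase to the gut epithelium. Mice of both genotypes received tamoxifen, which lets the recombinase act on floxed Apc, and tumoroids are labelled Apc deficient. Each line came from 1 mouse. Organoid lines were cultured for 6 days with vehicle (Ve, 0.5% DMSO), with the multi-kinase inhibitor regorafenib at 4 µM (R4) or 8 µM (R8), or with 5-FU, an inhibitor of thymidylate synthesis, at 1 µM. Fibroblasts were primary colon cultures of wild-type C57B/6 mice, lines M3, M3 (2), M1 (2) and M11, kept for 7 days with vehicle, R4, 1 µM autogramin-2 (A1, an inhibitor of autophagosome formation) or both (R4A1). Regorafenib at 10 µM (R10) was given to every fibroblast line except M11. This makes 24 organoid and 19 fibroblast libraries, with 3 lines in each of the 8 organoid groups and 3 or 4 in the 5 fibroblast groups.

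Lysosomes are acidic organelles that degrade material delivered by endocytosis and by autophagy. The vacuolar ATPase pumps protons into the lumen, membrane glycoproteins line and protect the limiting membrane, and soluble hydrolases take apart proteins, glycans, sulfated glycans and lipids. Many of these genes carry a short palindromic element near their start, to which the MiT/TFE family of transcription factors (Tfeb, Tfe3, Mitf and Tfec) can bind.

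RefSeq promoters were at hand for 31 of the 39 genes, each running from 250 bases before to 50 bases after the start. The letters TCACGTG, searched on both strands with overlapping matches on the 2 strands counted once, stood in the promoter of 12 of these 31 genes (38.7%), against 4.29% of the 27025 genes in the same table. The shorter CACGTG, which lies within TCACGTG, stood in 13 of the 31 (41.9%), against 8.09% of all genes. The 12 genes were Atp6v1a, Gla, Ctsd, Glb1, Ctsa, Arsa, Gaa, Lamp1, Atp6v0d1, Mcoln1, Sgsh and Naglu, and Lamp1 held 4 separate matches. A gene was counted where any of its promoters held the letters. Ctsa has 2 promoters in the table, of which the upstream one (chr2:164832622-164832921, plus strand) lacks them and the one printed here holds them. The 6 promoters printed here are those of the genes with TCACGTG and the largest log2 fold changes with regorafenib, significant or not. The letters can be read beside the values given further on. Capitals mark each match (TCACGTG, or CACGTGA where it lies on the other strand), and each sequence runs 5′ to 3′ along its gene in GRCm38.p6. Atp6v1a lies at chr16:44139210-44139509 on the minus strand, Gla at chrX:134600956-134601255 on the minus strand, Ctsd at chr7:142387778-142388077 on the minus strand, Glb1 at chr9:114400828-114401127 on the plus strand, Ctsa at chr2:164833523-164833822 on the plus strand and Arsa at chr15:89477375-89477674 on the minus strand.
Atp6v1a: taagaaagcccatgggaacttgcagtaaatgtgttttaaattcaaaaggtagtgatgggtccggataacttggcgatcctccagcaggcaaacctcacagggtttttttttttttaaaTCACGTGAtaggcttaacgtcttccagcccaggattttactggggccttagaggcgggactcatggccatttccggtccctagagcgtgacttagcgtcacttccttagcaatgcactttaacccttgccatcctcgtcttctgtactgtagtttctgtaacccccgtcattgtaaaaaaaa
Gla: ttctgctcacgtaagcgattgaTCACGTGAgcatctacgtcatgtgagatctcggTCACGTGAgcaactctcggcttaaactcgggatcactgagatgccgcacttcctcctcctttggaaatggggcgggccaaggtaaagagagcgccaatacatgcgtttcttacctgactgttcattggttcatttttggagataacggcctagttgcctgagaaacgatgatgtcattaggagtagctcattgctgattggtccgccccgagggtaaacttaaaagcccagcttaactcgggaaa
Ctsd: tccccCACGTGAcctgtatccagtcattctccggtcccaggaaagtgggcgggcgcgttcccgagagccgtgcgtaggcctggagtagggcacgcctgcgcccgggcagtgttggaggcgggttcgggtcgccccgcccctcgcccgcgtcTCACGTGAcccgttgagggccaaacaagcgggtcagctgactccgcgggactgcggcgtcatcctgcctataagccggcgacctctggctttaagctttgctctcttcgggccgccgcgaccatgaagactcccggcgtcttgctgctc
Glb1: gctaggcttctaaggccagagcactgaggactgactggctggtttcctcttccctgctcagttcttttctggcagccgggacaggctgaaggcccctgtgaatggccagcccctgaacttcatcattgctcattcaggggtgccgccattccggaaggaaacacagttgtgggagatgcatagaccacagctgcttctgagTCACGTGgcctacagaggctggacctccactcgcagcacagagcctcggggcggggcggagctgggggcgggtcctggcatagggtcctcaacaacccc
Ctsa: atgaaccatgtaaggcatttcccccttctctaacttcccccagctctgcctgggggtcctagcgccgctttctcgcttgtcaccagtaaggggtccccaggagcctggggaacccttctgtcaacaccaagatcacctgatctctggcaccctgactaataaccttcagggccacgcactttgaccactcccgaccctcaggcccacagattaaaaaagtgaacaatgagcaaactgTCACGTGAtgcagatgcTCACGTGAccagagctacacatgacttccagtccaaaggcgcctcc
Arsa: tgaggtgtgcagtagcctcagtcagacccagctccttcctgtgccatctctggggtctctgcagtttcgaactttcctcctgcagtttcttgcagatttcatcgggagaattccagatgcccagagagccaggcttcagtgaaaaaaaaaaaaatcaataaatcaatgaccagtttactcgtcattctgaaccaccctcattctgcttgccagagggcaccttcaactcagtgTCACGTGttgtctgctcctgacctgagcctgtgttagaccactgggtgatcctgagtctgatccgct

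**Figure D1:**
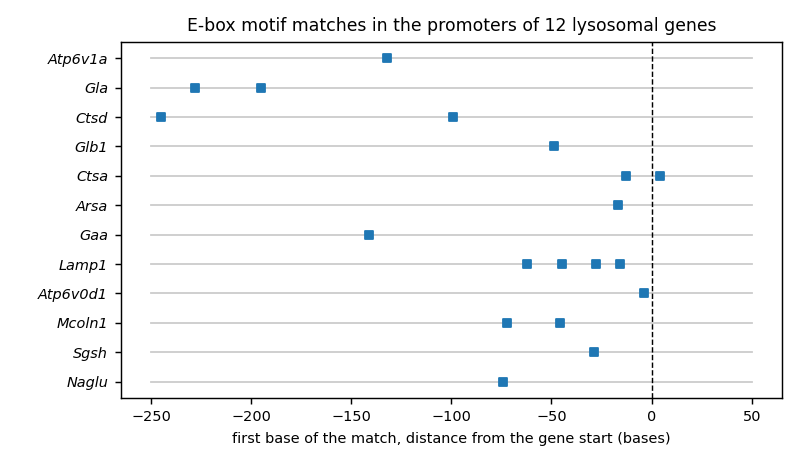
Position of every TCACGTG match (either strand) relative to the RefSeq start, in bases, for the 12 lysosomal genes whose promoter holds one. Matches lie between -245 (Ctsd) and 4 (Ctsa), and Lamp1 holds 4.

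The values are CP20M, reads counted per gene and scaled to 20000000 per library, so they compare libraries gene by gene. For comparisons between genes they were divided by the exon length in kilobases. That length merges all annotated exons of a gene, and the order between genes depends on it. Recovered read totals were 4371837 to 22160844 in 23 organoid libraries and 7949978 to 12825926 in fibroblasts. The library of colonoid line M41 with R4 held 512600 reads, so that 1 read there is worth 39.02 CP20M. It was the lowest of the 6 colonoid regorafenib libraries for 32 of the 39 genes and the highest for 3, and it gave 14.2% of its counts to 2 ribosomal RNA-like genes, against 1.205 to 3.92% in the other organoid libraries. Organoid results are therefore given with and without it. Summed levels of 10 epithelial markers were 112803 to 363135 CP20M in organoids and 213 to 1636 in fibroblasts. The sum of 10 fibroblast markers was at least 120379 in every fibroblast library and at most 146 in organoids, so both sets of cultures held the markers of their label.

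With vehicle, the aspartic protease cathepsin D was the most abundant of the 39 genes per kilobase in both kinds of culture. Ctsd stood at 4585 ± 329 CP20M per kb in colonoids (SD, n = 3), at 4138 ± 1037 in tumoroids (n = 3) and at 15750 ± 1622 in fibroblasts (n = 4). In organoids it was followed by Lamp1 (2797 CP20M per kb over all vehicle libraries), which coats the lysosomal membrane, by the saposin precursor Psap (2673) and by the membrane protein Laptm4a (2448). In tumoroids these 3 neighbours were not separated by their spread, with Lamp1 at 2418 ± 289, Psap at 2691 ± 231 and Laptm4a at 2432 ± 237 CP20M per kb (SD, n = 3). In colonoids Lamp1 stood above the others, at 3177 ± 76.1, while Psap (2655 ± 293) and Laptm4a (2465 ± 240) were not separated. The lowest levels in organoids were those of Arsa (arylsulfatase A, 42.5 CP20M per kb), Gla (alpha-galactosidase A, 69.7) and the calcium channel Mcoln1 (83.7). The most abundant glycosidase was Neu1 (sialidase, 723 CP20M per kb), the most abundant sulfatase Ids (iduronate sulfatase, 177) and the most abundant pump part the subunit Atp6v1b2 (1070). The 2 tables were scaled separately and were not tested against each other, so the fibroblast order is only set beside that of organoids. In fibroblasts Psap (12450 CP20M per kb) and Lamp1 (10280) again followed Ctsd, and Hexa (beta-hexosaminidase alpha, 3873), Ids (398) and the accessory pump subunit Atp6ap1 (2580) led their classes. The cysteine protease Ctsc was the lowest of the 39 in fibroblasts (66.4 CP20M per kb) and 19th in organoids (435), and the aminopeptidase Ctsh was 37th in fibroblasts (150) and 14th in organoids (646).

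Regorafenib raised 21 of the 39 lysosomal genes and lowered 1 when R4 and R8 were averaged over both genotypes and compared with vehicle (limma, adjusted p under 0.05). Of all 11562 genes tested 29.5% passed in either direction, 1400 rising and 2012 falling (17.4%). The median log2 fold change of the 39 genes was 0.54, against -0.11 over all genes, and 36 of the 39 were positive. Without the shallow library 33 rose and 1 fell, with a median of 0.63 against -0.06, and 19.8% of all genes rose. Trimmed-mean (TMM) scaling gave 29 higher and 1 lower with a median of 0.61, while it turned the split of all called genes from 1400 higher and 2012 lower to 1821 and 1703. Colonocyte markers were lower in the same libraries of both genotypes, and goblet cell markers were lower in those of colonoids only. The summed level of 7 colonocyte markers was 9817 to 16729 CP20M in vehicle colonoids and 84 to 1046 with regorafenib. In tumoroids it was 1432 to 5616 and 144 to 298. Of the 7 markers, 1 to 3 reached 200 CP20M in each vehicle colonoid library and 1 in each vehicle tumoroid library. The sum of 7 goblet cell markers was 1572 to 19050 in vehicle colonoids and 68 to 1721 with regorafenib. In tumoroids it was 64 to 412 and 73 to 230, with medians of 142 with vehicle, 119 with R4 and 145 with R8. The part of these markers in the rise of the lysosomal genes was not tested. In bulk RNA a gene's rise within each cell and a larger share of cells that express it cannot be told apart.

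The proteases held the widest range, from the largest rise to the only fall. Of 8 proteases 6 rose and 1 fell, with a median log2 fold change of 0.74. Ctsl (chr13:64359337-64370890, minus strand, GRCm38), a cysteine endopeptidase, was measured in colonoid lines M41, M40 and M1 at 6167, 5475 and 6033 CP20M with vehicle, at 9638, 13487 and 14633 with R4 and at 14548, 11390 and 13624 with R8. In tumoroid lines F11, M3 and M14 it was 2824, 4495 and 4244 with vehicle, 8400, 9005 and 10084 with R4 and 8835, 7677 and 9557 with R8. Each regorafenib library, the shallow one included, lay above every vehicle library of its genotype. The log2 fold change of Ctsl over both genotypes was 1.17 ± 0.12 (SE, adjusted p = 1.48e-06), a 2.25-fold rise.

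Ctsd also rose in all 6 lines, by 1.00 ± 0.14 on the log2 scale (adjusted p = 2.90e-05). In tumoroids its vehicle libraries held 6996, 11686 and 10503 CP20M, and its regorafenib libraries 19354, 17796 and 20080 at R4 and 17940, 19179 and 21498 at R8, with no overlap. In colonoids the vehicle libraries held 10136, 10562 and 11638, and the regorafenib libraries 10964, 20863 and 20356 at R4 and 33154, 24865 and 23606 at R8. The single overlapping value, 10964, was that of the shallow library. The other proteases that rose were Tpp1 (tripeptidyl peptidase, 0.97 ± 0.17), Ctsb (0.80 ± 0.13), Ctsz (0.68 ± 0.13) and Ctsa (the protective protein that stabilises Glb1 and Neu1, 0.64 ± 0.20), all log2 fold changes with limma. Of the exon bases of Ctsd, 34.4% overlap the predicted gene Gm49369 on the same strand, and 26.8% of those of Ctsl overlap Gm47123 on the opposite strand, so some of their reads may not have been assigned to them.

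Ctsc (chr7:88278085-88310888, plus strand), which activates serine proteases of immune cells by trimming their ends, went the other way. It stood at 2355, 1739 and 2834 CP20M in vehicle colonoids, at 157, 1592 and 1638 with R4 and at 1338, 1159 and 1121 with R8. In tumoroids it was 1677, 3065 and 3503 with vehicle, 1507, 2530 and 1743 with R4 and 1034, 1517 and 1153 with R8. It was lower than vehicle in all 6 lines, with groups that were apart in colonoids and overlapped in tumoroids. Its log2 fold change was -1.01 ± 0.34 (adjusted p = 0.0302), and -0.74 ± 0.16 (adjusted p = 0.00158) without the shallow library, where it was at its lowest. The call was lost when colonoid line M1 or any tumoroid line was left out. Ctsh was the other protease with a negative value (-0.24 ± 0.24, adjusted p = 0.474).

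**Figure D2:**
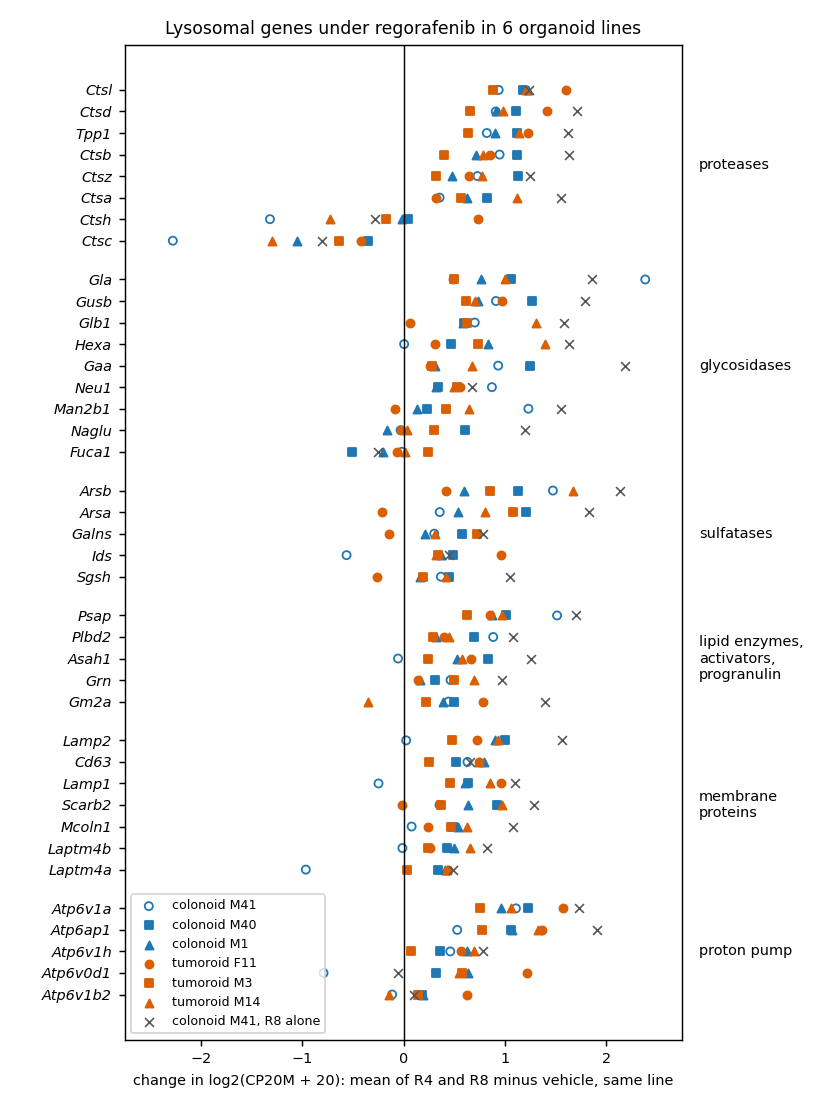
Change of each lysosomal gene with regorafenib in each of the 6 organoid lines, as the mean of R4 and R8 minus vehicle on the log2(CP20M + 20) scale, grouped by class. Hollow points are line M41, whose R4 library is shallow, and crosses its R8 library alone. Ctsl, Ctsd and Atp6v1a lie above 0 in all 6 lines and Ctsc below 0 in all 6.

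Of the 9 glycosidases, which remove sugars from glycoproteins, glycolipids and glycogen, 6 rose and none fell (median log2 fold change 0.62). Gla, which cleaves terminal galactose from glycolipids, rose by 1.04 ± 0.21 (adjusted p = 0.00112). Its values were 170, 204 and 255 CP20M in vehicle colonoids and 1405, 414 and 382 with R4, and the 1405 came from the shallow library. At R8 they were 671, 486 and 522, so every regorafenib colonoid library lay above every vehicle one. Without the shallow library the rise was 0.89 (adjusted p = 4.03e-05). Gusb (beta-glucuronidase) rose by 0.87 ± 0.11, the beta-galactosidase Glb1 by 0.65 ± 0.17, the glycogen-degrading Gaa by 0.62 ± 0.20, Neu1 by 0.52 ± 0.13 and the mannosidase Man2b1 by 0.43 ± 0.15. Hexa had a log2 fold change of 0.62 ± 0.26 that did not pass (adjusted p = 0.0719), and it passed without the shallow library (0.75, adjusted p = 0.0117). Naglu and the fucosidase Fuca1 passed in neither fit, at 0.12 ± 0.23 and -0.09 ± 0.13.

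The sulfatases, which strip sulfate groups from glycosaminoglycans and sulfatides, had the smallest median of the classes (0.33), with 1 of 5 higher. That gene was Arsb, which held 459 to 699 CP20M in vehicle colonoids against 820 to 2089 with regorafenib, and 695, 618 and 419 in vehicle tumoroids against 901 to 1423. The groups did not overlap in either genotype, and the log2 fold change was 1.02 ± 0.18 (adjusted p = 0.000254). Of its exon bases 32.3% overlap Gm26527 on the opposite strand. Without the shallow library all 5 passed, with a median of 0.48. Arsa had the lowest level per kilobase of the 39 genes in vehicle organoids, and its 40 CP20M in the shallow library amount to 1 read. With all libraries its log2 fold change of 0.63 did not pass, and it was higher in 5 of 6 lines. Of the 5 lipid-degrading enzymes and cofactors 2 rose, Psap by 0.98 ± 0.10 (adjusted p = 2.03e-06) and the phospholipase-like Plbd2 by 0.51 ± 0.11. Psap (chr10:60277627-60302597, plus strand) held 6556, 7154 and 8145 CP20M in vehicle colonoids and 12850 to 21298 in the 6 with regorafenib, and 6765, 8034 and 7357 in vehicle tumoroids against 11378 to 14642. The groups were apart in both genotypes. The ceramidase Asah1 (0.47 ± 0.21, adjusted p = 0.104) and the progranulin gene Grn (0.38 ± 0.17, adjusted p = 0.0974) passed only when the shallow library was left out, and the activator Gm2a passed in neither fit (0.33 ± 0.19).

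Among the 7 membrane proteins 3 rose with all libraries and all 7 rose without the shallow one (medians 0.54 and 0.58). The tetraspanin Cd63 rose by 0.61 ± 0.09 (adjusted p = 5.65e-05). Lamp2, which takes part in chaperone-mediated autophagy, was at the threshold, at 0.68 ± 0.25 with an adjusted p of 0.04999, and at 0.89 ± 0.10 (adjusted p = 3.22e-06) without the shallow library. The glucocerebrosidase receptor Scarb2 rose by 0.54 ± 0.19 (adjusted p = 0.0395). Lamp1 did not pass with all libraries (0.55 ± 0.22, adjusted p = 0.0633) and rose without the shallow one (0.73 ± 0.08, adjusted p = 1.64e-06). Its colonoid libraries held 8267, 8582 and 8648 CP20M with vehicle, 2732, 12522 and 12239 with R4 and 17696, 14268 and 14210 with R8. The 2732 of the shallow library was the only regorafenib value under the vehicle range, and in tumoroids all 6 regorafenib values (9272 to 12188) exceeded the 3 vehicle values (5690, 7234 and 6477).

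Of the 5 parts of the proton pump 3 rose (median 0.46). Atp6v1a (chr16:44085402-44139705, minus strand), the subunit that binds and splits ATP, stood at 2528, 3059 and 2963 CP20M in vehicle colonoids, at 3551, 6363 and 4956 with R4 and at 8433, 8160 and 6725 with R8. In tumoroids it was 2547, 3418 and 2911 with vehicle, 6137, 4985 and 4951 with R4 and 9399, 6673 and 7447 with R8. All regorafenib values lay above all vehicle values, and those at R8 above those at R4, in each genotype. Its log2 fold change was 1.11 ± 0.12 (adjusted p = 2.22e-06). Atp6ap1 held 1491, 2084 and 1709 CP20M in vehicle colonoids, 820 in the shallow library and 3271 to 5650 in the other 5 regorafenib colonoids, and in tumoroids 1181, 1765 and 1690 with vehicle against 2679 to 4391. It rose by 1.02 ± 0.26 (adjusted p = 0.00606), and by 1.21 without the shallow library, and the regulatory subunit Atp6v1h rose by 0.46 ± 0.11. Atp6v0d1, which links the membrane and outer sectors, passed only without the shallow library (0.56, adjusted p = 0.000495), and Atp6v1b2 passed in neither fit (0.15 ± 0.12, adjusted p = 0.371).

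**Figure D3:**
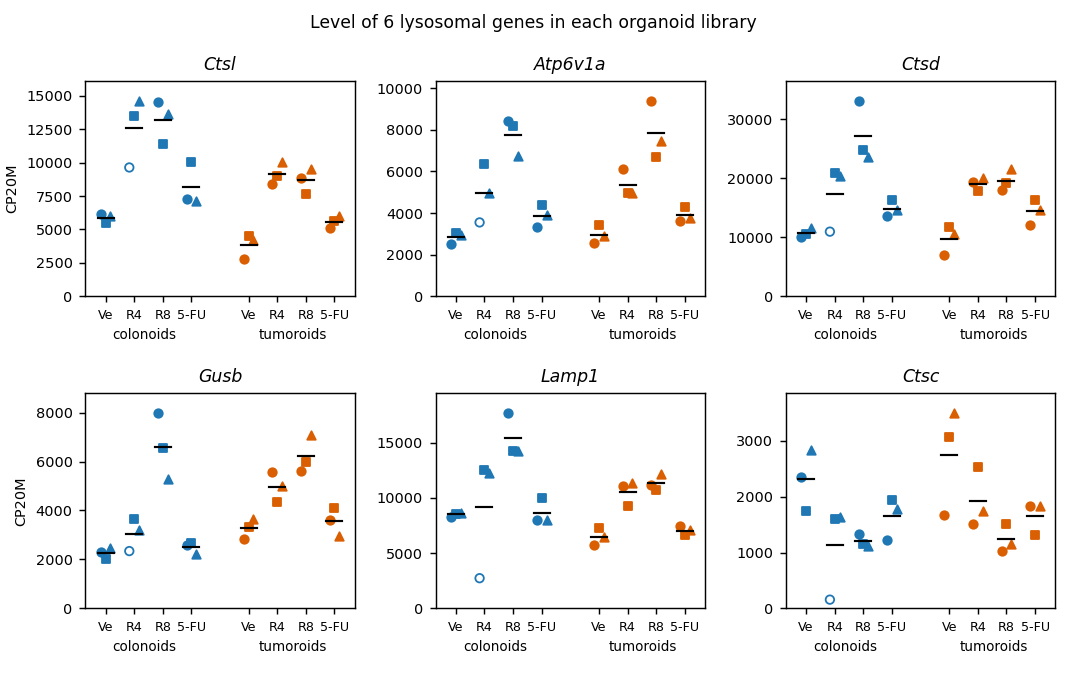
CP20M of Ctsl, Atp6v1a, Ctsd, Gusb, Lamp1 and Ctsc in every organoid library by group, with a bar at the group mean and the shallow library hollow. Ctsl rises from 2824 to 6167 with vehicle to 7677 to 14633 with regorafenib, and Atp6v1a and Gusb rise further from R4 to R8.

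Taken line by line, 22 of the 39 genes were higher with regorafenib in all 6 organoid lines and 1, Ctsc, was lower in all 6. Over all tested genes the shares were 13.6% and 20.1%. The 12 genes whose promoter holds TCACGTG had a median log2 fold change of 0.62, with 6 of 12 called higher. The 19 whose promoter was at hand and lacks it had a median of 0.61, with 12 called higher and 1 lower. Tfeb itself fell (-0.93 ± 0.18, adjusted p = 0.000801), from 416 ± 75.3 CP20M in vehicle colonoids (SD, n = 3) to 195 ± 82.6 at R8, and Tfe3 fell by 0.47 on the log2 scale (adjusted p = 0.0126). Mitf and Tfec did not pass the filter on low values in organoids, at 26.0 ± 10.6 and 1.33 ± 2.31 CP20M in vehicle colonoids (SD, n = 3).

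In each genotype taken alone the same direction held with fewer calls. In colonoids 13 of the 39 rose and none fell, beside 6.55% of all genes that rose, and without the shallow library 27 rose and 1 fell, beside 13.6%. Under TMM scaling the median of all genes in colonoids moved from -0.15 to -0.04, and that of the 39 from 0.53 to 0.65. The colonoid calls, in order of log2 fold change, were Gla (1.40 ± 0.30), Psap (1.14 ± 0.14), Ctsl (1.11 ± 0.16), Atp6v1a (1.099 ± 0.17), Arsb (1.07 ± 0.25), Ctsd (0.98 ± 0.19), Gusb (0.97 ± 0.16), Tpp1 (0.95 ± 0.25), Ctsb (0.93 ± 0.19), Ctsz (0.78 ± 0.18), Cd63 (0.65 ± 0.13) and Plbd2 (0.63 ± 0.16), with 1 more, Atp6v1h, under these.

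In tumoroids 10 rose and none fell, beside 5.11% of all genes that rose. They were Ctsl (1.23 ± 0.16), Atp6v1a (1.13 ± 0.17), Ctsd (1.02 ± 0.19), Tpp1 (1.00 ± 0.25), Arsb (0.98 ± 0.25), Psap (0.82 ± 0.14), Gusb (0.77 ± 0.16), Ctsb (0.68 ± 0.19), Ctsz (0.58 ± 0.18) and Cd63 (0.58 ± 0.13). Although no tumoroid library is shallow, the tumoroid count went to 23 higher and 1 lower, beside 10.0% of all genes higher, when the shallow colonoid library was left out, because all organoid groups share 1 estimate of the spread. Without tumoroid line M14 the count was 2, without F11 4 and without M3 6, and without colonoid line M41 it was 23.

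The difference between the genotypes in the regorafenib response was tested as an interaction, and it passed for 0 of the 39 genes (0.0% of all genes). At an unadjusted p under 0.05 there were also 0 of the 39, and 411 of all 11562 genes. TMM scaling and edgeR gave 0 of 39 as well. The genes with the smallest p were Atp6v0d1 (tumoroid minus colonoid response 0.72 ± 0.38), Gla (-0.74 ± 0.42) and Psap (-0.32 ± 0.20), all with an adjusted p of 0.997 from limma. With vehicle alone, 0 of the 39 genes passed between tumoroids and colonoids, beside 2.14% of all genes, 6 of the 39 had an unadjusted p under 0.05, and TMM scaling and edgeR each gave 1, lower in tumoroids. The smallest p values were those of Ctsl (-0.64 ± 0.19, adjusted p = 0.0822), Cd63 (-0.49 ± 0.15, adjusted p = 0.0839) and Gusb (0.53 ± 0.19, adjusted p = 0.141). Without the shallow library, which is not a vehicle library, 5 passed beside 9.27% of all genes: Atp6v0d1 (-0.69), Ctsl, Cd63 and Lamp1 (-0.40) were lower in tumoroids and Gusb was higher.

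R8 and R4 were compared directly to see how the response grew with dose. Of the 39 genes 37 had a positive log2 difference, and 2 passed, beside 0.571% of all genes that were higher. Gusb differed by 0.72 ± 0.13 (adjusted p = 0.0152) and Atp6v1a by 0.61 ± 0.14 (adjusted p = 0.0351). In colonoids Gusb stood at 2292, 2021 and 2455 CP20M with vehicle, at 2342, 3643 and 3183 with R4 and at 7993, 6534 and 5289 with R8. In tumoroids it was 2845, 3309 and 3645, then 5576, 4336 and 5012, then 5611, 5969 and 7088. The R8 libraries lay above all R4 libraries in both genotypes. Both genes also passed without the shallow library (0.63 and 0.50), and with line as a block 5 genes passed, beside 3.04% of all genes. Leaving out any 1 of the 6 lines brought the count to 0 or 1. Hexa had the largest difference. Its libraries held 235, 743 and 640 CP20M with R4 and 2399, 1697 and 1089 with R8 in colonoids, and 686, 815 and 486, then 861, 1216 and 1000 in tumoroids, so that here too every R8 library lay above every R4 library of its genotype. It passed with the block (1.18 ± 0.25, adjusted p = 0.0125) and not without it (1.18 ± 0.30, adjusted p = 0.0566). Ctsl did not differ detectably between the doses (0.00 ± 0.13). The median dose difference of the 39 genes was 0.37 with the shallow R4 library and 0.18 without it, against 0.11 and 0.01 over all genes.

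5-FU, the other drug given to organoids, raised 1 of the 39 genes, beside 1.85% of all genes, and shared its vehicle libraries with the regorafenib comparisons. Ctsl stood at 7296, 10072 and 7127 CP20M in colonoids and at 5134, 5613 and 5989 in tumoroids with 5-FU, each above every vehicle library of its genotype. Its log2 fold change was 0.51 ± 0.13 (adjusted p = 0.0452), beside 1.17 with regorafenib. Ctsd came next (0.52 ± 0.16, adjusted p = 0.0799). The median of the 39 was 0.13, against -0.01 over all genes, and 10 genes were higher in all 6 lines while none was lower in all 6, beside 14.2% and 12.2% of all genes. The call of Ctsl was lost without any 1 line other than M41. With line as a block 3 rose, beside 5.48% of all genes. Without the shallow library 5 rose and 1, Neu1 (-0.30), fell, beside 9.72% of all genes in either direction. The drugs were given at unlike doses, and the difference between them was not tested.

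In fibroblasts R10 raised 6 of the 39 lysosomal genes, beside 6.45% of all genes, and lowered 1, beside 7.99%. The median log2 fold change was 0.14, against -0.04 over all 11032 genes tested. With line as a block, which compares libraries within lines, 21 rose and 3 fell, beside 19.1% and 23.4% of all genes. Without line M11 in any group 12 rose and 3 fell, beside 10.3% and 14.6% of all genes under that fit. Each of the other lines mattered too: without M3 or M1 (2) the count of calls was 1, and without M3 (2) it was 0.

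The largest of the R10 rises was that of Neu1 (chr17:34931253-34935953, plus strand), which trims sialic acid. In lines M3, M3 (2), M1 (2) and M11 it stood at 911, 1089, 1098 and 1008 CP20M with vehicle and at 1185, 1178, 1353 and 1436 with R4. In the first 3 of these lines it was 1426, 1608 and 1625 with R10, above every vehicle library. Its log2 fold change at R10 was 0.59 ± 0.12 (adjusted p = 0.00360), and 0.63 with line as a block. Mcoln1, which releases calcium from the lysosome, rose by 0.40 ± 0.12 (adjusted p = 0.0351), from 890, 1050 and 995 in these 3 lines to 1255, 1478 and 1397. Vehicle M11, at 1254, lay just under the lowest R10 library. The other rises were Gusb (0.37 ± 0.10), Tpp1 (0.34 ± 0.07, adjusted p = 0.00500), Arsa (0.33 ± 0.11) and Gaa (0.28 ± 0.08). Cd63 fell, by 0.28 ± 0.08 on the log2 scale (adjusted p = 0.0295), from 10844, 10479, 10566 and 10157 with vehicle to 8526, 8826 and 8614, with no overlap. In organoids Cd63 had risen with regorafenib.

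**Figure D4:**
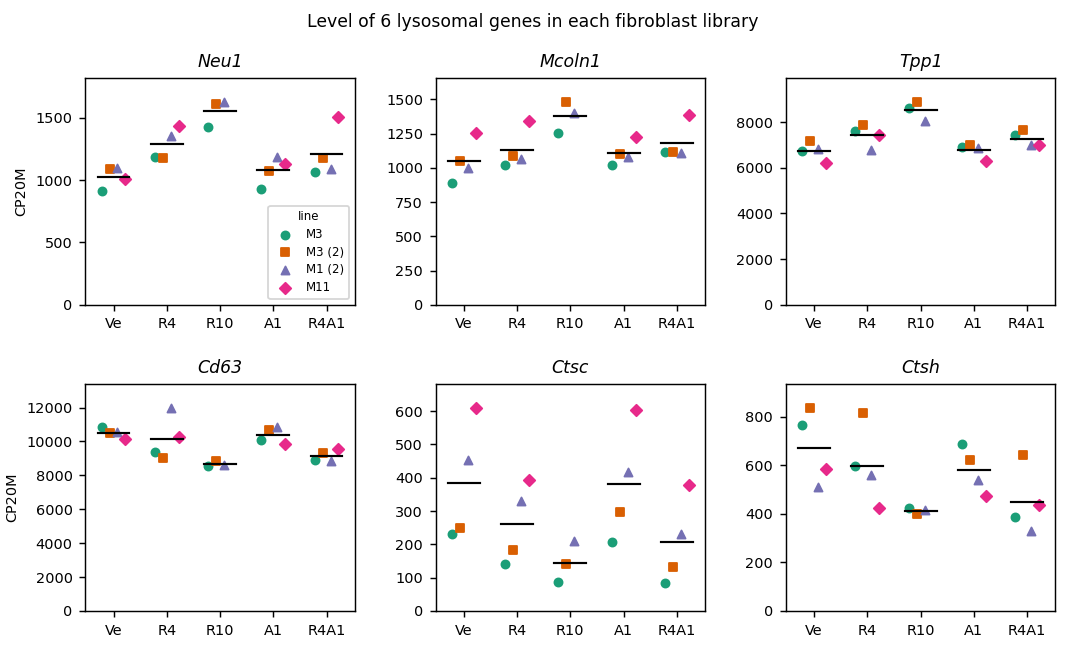
CP20M of Neu1, Mcoln1, Tpp1, Cd63, Ctsc and Ctsh in every fibroblast library by group, with a bar at the group mean. Neu1 rises from 911 to 1098 with vehicle to 1426 to 1625 with R10, Cd63 falls below its vehicle range, and Ctsc in line M11 lies above the other lines.

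The 4 genes with the most negative R10 values in fibroblasts were Ctsc, Ctsh, Scarb2 and Ctsb. Ctsc stood at 232, 250, 453 and 608 CP20M with vehicle, at 142, 184, 330 and 394 with R4 and at 87, 140 and 209 with R10. It was lower than vehicle in every line, and it did not pass against the spread between lines (-1.26 ± 0.48, adjusted p = 0.0943) but passed with line as a block (-0.998 ± 0.114, adjusted p = 3.60e-06). Ctsh went from 765, 833, 509 and 583 to 423, 397 and 417 (-0.65 ± 0.23, adjusted p = 0.0635, with the block -0.73, adjusted p = 0.00129). Scarb2 differed between lines more than with treatment, from 4457 to 16598 CP20M with vehicle, the highest being M11, and Ctsb likewise from 19282 to 46788. R10 lacks line M11, so the R10 values of these 2 genes also hold this difference between lines. Within the 3 lines given R10 the log2 change ran from -0.414 to 0.243 for Scarb2 and from -0.189 to 0.055 for Ctsb. Each was higher in 1 line and lower in 2. The summed level of 15 macrophage markers was also lower with R10 and with R4A1. It was 2141 to 7458 CP20M with vehicle, highest in M11, 1000 to 2372 with R4, 594 to 654 with R10, 1982 to 4979 with A1 and 689 to 876 with R4A1. With R4A1 the sum was 753 in M11, within the range of the other lines, and it rests on few markers. In each R4A1 library 1 to 3 of the 15 reached 200 CP20M. Ctsb with R4A1 was 38315 CP20M in M11 and 17972 to 23716 in the other lines. Scarb2 was 13694 in M11 and 4209 to 6392 in the others. Between 5 and 6 of the 15 were at 0 in each R10 library, among them the complement gene C1qa and, in 2 of the 3, Adgre1. The part of these macrophage markers in the values of Ctsc, Ctsh, Scarb2 and Ctsb was not tested.

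At 4 µM, the dose shared with organoids, 0 of the 39 genes passed in fibroblasts, beside 1.72% of all genes. There were 4 with an unadjusted p under 0.05, and TMM scaling and edgeR also called 0. The smallest p values were those of Neu1 (0.32 ± 0.11, adjusted p = 0.182), Gusb (0.25 ± 0.09, adjusted p = 0.222) and Man2b1 (0.38 ± 0.16, adjusted p = 0.305). With line as a block 9 rose and 1, Ctsc (-0.52), fell, close to the share of all genes called in either direction (23.2%). Of all 11032 genes 1298 rose and 1260 fell under that fit. The 9 were Man2b1, Fuca1 (0.35), Neu1, Hexa (0.30), Naglu, Gusb, Ctsd (0.26), Atp6v1b2 (0.20) and Tpp1 (0.14). R10 against R4 called 0 of 39, beside 0.245% of all genes (8 of 39 at an unadjusted p under 0.05, 0 with TMM scaling and with edgeR), led by Gaa (0.30 ± 0.08, adjusted p = 0.109), Tpp1 (0.20) and Cd63 (-0.22). With the block 7 were higher and 3 lower, beside 18.7% of all genes, the largest being Mcoln1 (0.36) and, among those lower, Ctsh (-0.55).

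**Figure D5:**
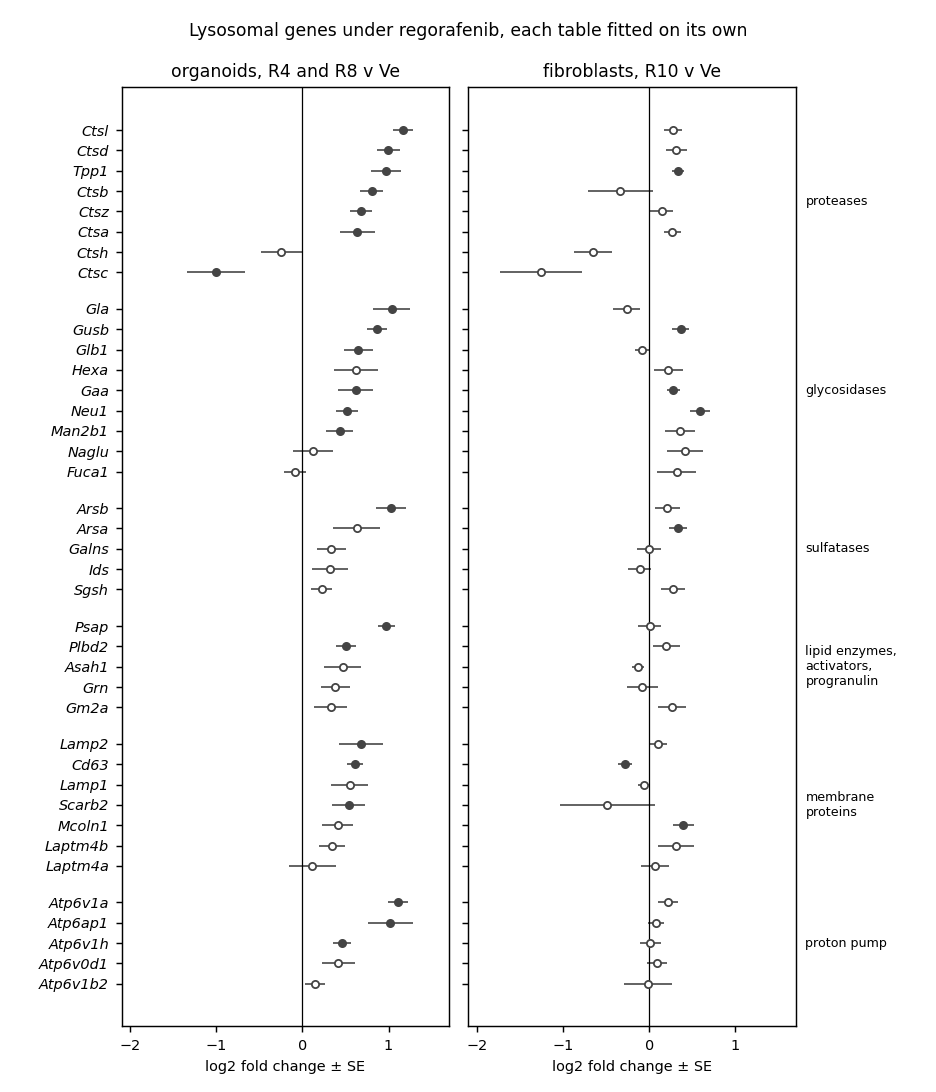
Log2 fold change ± SE of each lysosomal gene with regorafenib in organoids (R4 and R8 over both genotypes) and in fibroblasts (R10), filled where the adjusted p is under 0.05. Organoid values run from -1.01 (Ctsc) to 1.17 (Ctsl), and fibroblast values at R10 from -1.26 (Ctsc) to 0.59 (Neu1).

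Set side by side, the 5 genes with the largest rises in organoids were Ctsl, Atp6v1a, Gla, Arsb and Atp6ap1. In R10 fibroblasts their log2 fold changes were 0.28 ± 0.10, 0.21 ± 0.12, -0.26 ± 0.16, 0.21 ± 0.15 and 0.08 ± 0.10, none of which passed in the fit without a block. Those of Ctsd (0.31 ± 0.12) and Psap (0.01 ± 0.13) did not pass there either. Within lines, Ctsl, Atp6v1a, Arsb, Atp6ap1 and Ctsd were higher with R10 in all 3 lines, and Gla was lower in all 3. Psap was higher in 2 lines and lower in 1. Of all genes 29.5% were higher in all 3 lines and 37.3% were lower in all 3. Neu1, Gusb, Tpp1 and Gaa rose in both kinds of culture. The cultures differed in medium, time and dose and lay in separately scaled tables, so the difference between them was not tested.

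No difference from vehicle was detectable for the 39 genes with autogramin-2 alone. The comparison called 0 of the 39 and 0.0% of all genes, with 0 of the 39 and 120 of all genes at an unadjusted p under 0.05, and TMM scaling, edgeR and the block also called 0. The log2 fold changes ran from -0.23 to 0.16, and the smallest p values were those of Gla (-0.23 ± 0.15), Ctsl (0.11 ± 0.10) and Arsa (0.11 ± 0.10). The combination R4A1 called 0 of the 39 against vehicle, beside 2.89% of all genes, with 6 at an unadjusted p under 0.05 and 0 with TMM scaling or edgeR. Gaa (0.21 ± 0.07, adjusted p = 0.121), Ctsh (-0.58 ± 0.21, adjusted p = 0.155) and Gla (-0.41 ± 0.15, adjusted p = 0.159) had the smallest p values. With line as a block 7 rose and 6 fell, beside 27.2% of all genes, and the 6 were Ctsc (-0.91), Ctsh, Gla, Scarb2 (-0.31), Ctsb (-0.21) and Cd63 (-0.20).

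R4A1 was set against R4 to see what autogramin-2 added. No gene of the 39 passed, beside 0.00906% of all genes, 1 of the 39 had an unadjusted p under 0.05, and TMM scaling and edgeR called 0. With the block 1 was higher and 2 were lower, beside 4.0% of all genes. These were Gaa (0.23 ± 0.06, adjusted p = 0.0439), Ctsc (-0.39 ± 0.10, adjusted p = 0.0441) and Gla (-0.30 ± 0.08, adjusted p = 0.0473). Gla stood at 948, 981, 1394 and 1280 CP20M with R4 and at 965, 793, 927 and 1006 with R4A1, lower in 3 of 4 lines. All fibroblast comparisons with vehicle share the 4 vehicle libraries.

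A wider list of lysosomal genes, also chosen with earlier results of these data known, gave the same direction in organoids. Of 75 other hydrolases, membrane proteins, pump subunits and sorting factors tested, 26 rose with regorafenib and none fell (median 0.28, against -0.11 over all genes), and without the shallow library 39 rose and 1 fell. These counts stand beside the 1400 of 11562 genes that rose with all libraries and the 19.8% that rose without the shallow one. The largest rises were Gga2 (1.84 ± 0.14), an adaptor that carries hydrolases from the Golgi, Cd68 (1.60 ± 0.40), a heavily glycosylated membrane protein, Aga (1.45 ± 0.16), which frees sugar chains from asparagine, the cystine exporter Ctns (1.28 ± 0.35) and the mannosidase Manba (1.22 ± 0.25). Cd68 stood at 55, 48 and 83 CP20M in vehicle colonoids, 40, 61 and 69 with R4 and 2659, 821 and 211 with R8, so its rise there lay at the higher dose. Cd68 and Gga2 were also the 2 of these genes that passed between R8 and R4 (2.47 ± 0.46 and 0.82 ± 0.16). The 15 macrophage markers summed to 1246 to 3302 CP20M in vehicle colonoids and to 990 to 1138 at R8. These sums rest on few of the 15. In each vehicle colonoid library 2 to 3 reached 200 CP20M and 4 to 9 were at 0. In each R8 library 2 reached it and 9 to 11 were at 0. With 5-FU 3 of the 75 rose, beside 1.85% of all genes, the gastric-type protease Ctse (1.57 ± 0.40), Dnase2a (0.53 ± 0.14) and the pump subunit Atp6v1e1 (0.48 ± 0.11). Between vehicle tumoroids and colonoids 1 of the 75 passed, beside 2.14% of all genes, the pump subunit Atp6v0a2 (-0.60 ± 0.16).

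In fibroblasts R10 raised 10 of 72 of these other genes and lowered none, beside 6.45% and 7.99% of all genes. They were led by the cysteine protease Ctsf (0.98 ± 0.18), Aga (0.61 ± 0.18), Ostm1 (0.40 ± 0.10), the mannose-6-phosphate receptor M6pr (0.38 ± 0.10) and the sphingomyelinase Smpd1 (0.37 ± 0.11). Ctsf was the only one of the 72 that rose with R4 (0.72 ± 0.17, adjusted p = 0.0416), where 1.72% of all genes passed, and with R4A1 (0.66 ± 0.17, adjusted p = 0.0472), where 2.89% did. Tfe3 fell with R10 (-0.38 ± 0.10, adjusted p = 0.0133) and Tfeb did not pass (0.18 ± 0.37, adjusted p = 0.814). Mitf and Tfec stood at 152 ± 16.6 and 147 ± 43.0 CP20M in vehicle fibroblasts (SD, n = 4), below the filter.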

How the data were processed

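RNA was sequenced from 24 organoid and 19 fibroblast cultures. Per the submitters' processing notes, the authors trimmed reads with Trimmomatic 0.36, aligned them with STAR 2.5.3a to GRCm38 and counted them per Ensembl gene with HTSeq 0.9.1. The deposited CP20M values are a signal that the authors made by scaling each library's counts to 20000000 and rounding up. Legends of the study define CP20M per kilobase of transcript, but short and long genes of a library lie on the same grid of values, so these were read as not divided by length. Levels per kilobase rest on this reading. Whether counting used strand is not given in the sources used here. The labels name the Ovation SoLo kit and the study's methods a NEBNext Ultra II directional kit for organoids.

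Groups were taken from the labels, and each line is 1 mouse. Since 3 titles call the 5-FU cultures of floxed Apc lines colonoids, these were placed by the genotype label. No 2 libraries of a group were copies (51 pairs, at least 8.86 in chi-square per gene). Genes with 200 CP20M (10 CPM) or more in at least 2 libraries were kept (11562 and 11032). limma 3.58.1 in R 4.3.3 was fitted per table to log2(CP20M + 20), with 1 coefficient per group, a trend in the variance and Benjamini-Hochberg adjustment over all genes tested at 0.05. Fold changes on this scale understate those of low genes. Whole reads were recovered from the step between values, with 99.61 to 100.0% of values whole, and edgeR 4.0.16 was run on them as an alternative. Recovery is approximate in the 3 libraries over 20000000 reads. The model fits and read recovery were tested on simulated data. Errors are SDs over lines or SEs of the fit. These SEs rest on the spread between lines, and on that within lines where line was a block.

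Line is the pairing, since all treatments of a line come from the same mouse. Deviations from group means correlated at 0.50 on average between libraries of a line in organoids (0.01 to 0.89, 36 pairs) and at -0.25 between lines (72 pairs), and at 0.72 (0.34 to 0.95, 36 pairs) and -0.23 (108 pairs) in fibroblasts. The negative values between lines follow largely from the centring, since deviations within a group sum to 0, and are no separate evidence of pairing. Alternatives were a pseudocount of 1, no filter, TMM scaling, edgeR, line as a block, the shallow library left out, each line left out, the 18 libraries with vehicle or regorafenib alone, and the study's limits on fold and FDR.

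The 39 genes and all lists were chosen with earlier results of these data known. In each comparison the called genes were named by size of change, up to 12, or otherwise the 3 with the smallest p, with the most abundant gene of each class, up to 5 called genes of the wider list, and Tfeb, Tfe3, Mitf and Tfec. Other members of the 39 are named to account for each class. Positions and exon lengths come from GENCODE M21, and promoters from RefSeq (GRCm38.p6).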

Additional observations from a re-analysis of the deposited data

Results flagged for a closer look

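Of 156 sets of 4 fibroblast libraries (a gene in a group), 13 held 1 library whose gap to its nearest neighbour took up more of the range of the set than Dixon's 95% critical value for 4 samples allows. Chance gives about 1 in 20, and 12 of the 13 were in line M11, 6 high and 6 low. With R4, Man2b1 stood at 6029 CP20M in M11 (next 4145), Sgsh at 1040 (next 1274) and Laptm4b at 1928 (next 2543). With A1, Psap stood at 43251 in M11 (next 34233), Ctsa at 7281 (next 9035), Laptm4b at 1595 (next 2469) and Atp6v0d1 at 3110 (next 3826). With R4A1, M11 was high for Man2b1 (5189, next 3998), Fuca1 (3209, next 2155), Mcoln1 (1387, next 1118) and Atp6v1b2 (6335, next 3752), and low for Laptm4b (1744, next 2414). The remaining value was Gaa in line M3 (2) with R4A1, at 10255 (next 12082). Laptm4b was lowest in M11 with all 3 of these treatments and with vehicle (1544, against 2377 to 2870).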

How the results depend on the processing

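Of 577 values of named genes under other settings, 521 kept direction and side of the threshold, 39 lost it, 17 gained it and 0 reversed. These values cover only genes named for each comparison, called or not, and do not count every call among the 39 genes. The counts of calls among the 39 genes moved more. For regorafenib over both genotypes, 22 calls became 34 without the shallow library, 35 without it and with line as a block, and 10 under the study's limits, and leaving out 1 line gave 15 to 29. Calls over all genes moved too, from 3412 of 11562 to 4951 of 11526, 6080 of 11526 and 786 of 11562 in the same order. The numbers for all genes below have the same totals. In colonoids 13 became 20 with TMM scaling, 24 with edgeR, 28 without the shallow library, 33 with the block as well and 4 under the study's limits (8 to 18 with a line left out). The colonoid calls over all genes went from 2012 to 2259, 2473, 3242, 4549 and 286. In tumoroids 10 became 16 with edgeR, 24, 28 and 2 in the same order (2 to 23). Those over all genes went from 1084 to 1622, 2384, 3866 and 60. For R8 against R4, 2 became 1 with no filter, 1 with the 18 libraries of the study's fit and 5 with the block, with or without the shallow library (0 to 1). With the block 121 calls over all genes became 621 with the shallow library and 1023 without it. For 5-FU, 1 became 0 with no filter and under the study's limits, 2 with TMM scaling, 3 with edgeR or the block, 6 without the shallow library and 10 with the block as well (0 to 2). Over all genes 356 calls became 272 under the study's limits, 407 with TMM scaling, 621 with edgeR and 934 with the block. They became 1120 without the shallow library and 2399 of 11526 with the block as well. Between genotypes with vehicle, 0 became 1 with TMM scaling or edgeR and 5 without the shallow library (0 to 0), where lines differ in mouse and could not be paired. There 248 calls over all genes became 336 with TMM scaling, 415 with edgeR and 1068 without the shallow library. The interaction stayed at 0 (0 to 0).

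In fibroblasts the block moved R4 from 0 to 10, R10 from 7 to 24, R4A1 from 0 to 13, R4A1 against R4 from 0 to 3 and R10 against R4 from 0 to 10. It moved the calls over all 11032 genes from 190 to 2558, 1594 to 4682, 319 to 3000, 1 to 441 and 27 to 2066 in the same order. R10 also gave 2 with no filter and 1 under the study's limits, which 809 of all genes met. Leaving out 1 line gave 0 to 1 for R4, 0 to 15 for R10, 0 to 1 for R10 against R4 and 0 to 0 for A1, R4A1 and R4A1 against R4. Beside the results named here the block changed no count by more than 1.5 times. Groups of 3 or 4 lines and, in 1 library, 512600 reads limit these comparisons. The causes of these shifts were not tested.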
